A study of Mus musculus with 9 samples.

Results

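The intervention group was set against the control group in HT22, an immortalised line from mouse hippocampus that is used as a model of neurons. The comparison is between 6 of the 9 mRNA-sequencing libraries of the series, 3 labelled intervention and 3 labelled control. The remaining 3 libraries, labelled experimental, were cultured from the same line, and their values are given beside the others. They also entered the filter, the estimate of the spread behind each p-value and interval, and the choice of some named genes. The labels name the groups and nothing else about them: dose, time and agent of each group were not stated in what was used here. The series title speaks of neurons stimulated with hemin and of PPP8, a bioactive micelle, and does not say which cultures received them. All 9 libraries come from 1 cell line, and no label says that replicates were separate cultures, so the spread behind every p-value is that between these libraries and may be technical. Expression is in FPKM, a fragment count set relative to the length of the gene and the size of the library. The 11974 of 29756 entries with 1 FPKM or more in 3 or more of the 9 libraries were compared.

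Hemin is an oxidised form of heme, the iron-holding ring of hemoglobin that reaches neurons after bleeding. Free heme binds BACH1, a repressor that normally holds down the genes of heme breakdown and ferritin, while oxidants and reactive lipids free NRF2 from KEAP1 so that it switches on glutathione, thioredoxin and detoxifying enzymes. Damaged proteins release HSF1, which drives chaperone genes, and stress at the ribosome or in the endoplasmic reticulum (ER) raises ATF4, which drives amino acid import and synthesis. Loss of cystine import through SLC7A11 starves glutathione synthesis and is a route to ferroptosis, an iron-dependent death by lipid peroxidation.

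Each value was transformed to log2(FPKM + 1), and a gene was called when limma gave an adjusted p under 0.05. Against control, 2890 genes (24.1%) were called higher in the intervention group and 4926 (41.1%) lower, which makes 7816 (65.3%) in either direction. The median difference over all genes was -0.10 on the log2 scale. After scaling by median ratios, which moved that median to 0.02, the calls were 3999 higher and 3787 lower. After quantile normalization they were 3802 and 3900, and on TPM they were 2373 and 5575, so the balance of directions depends on the scaling. Calls with a difference of at least 1 log2 unit were fewer, with 237 higher (1.98%) and 428 lower (3.57%). Mean FPKM differed at least 10-fold in 29 of the genes called higher and in 3 of those called lower.

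A gene was placed at control level by another rule, since a missed threshold does not show equality: the 95% interval of its difference had to lie wholly between 20% below and 25% above control (0.32 log2 units to either side). This held for 2887 genes (24.1%), of which 447 were also called, with small differences. Of the 2887, 1857 kept this place after median-ratio scaling, 1871 after quantile normalization and 1874 on TPM. A further 1718 genes (14.3%) were neither called nor shown to be at control level. The values of the 3 intervention and 3 control libraries did not overlap in 8221 genes (68.7%). The share placed at control level varied with expression. It was 10.9% of the 1985 genes with a mean of at most 2 FPKM and 30.5% of the 2027 genes between 20 and 100 FPKM. Above 100 FPKM it was 19.7% of 386 genes, of which 79.8% were called.

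**Figure D1:**
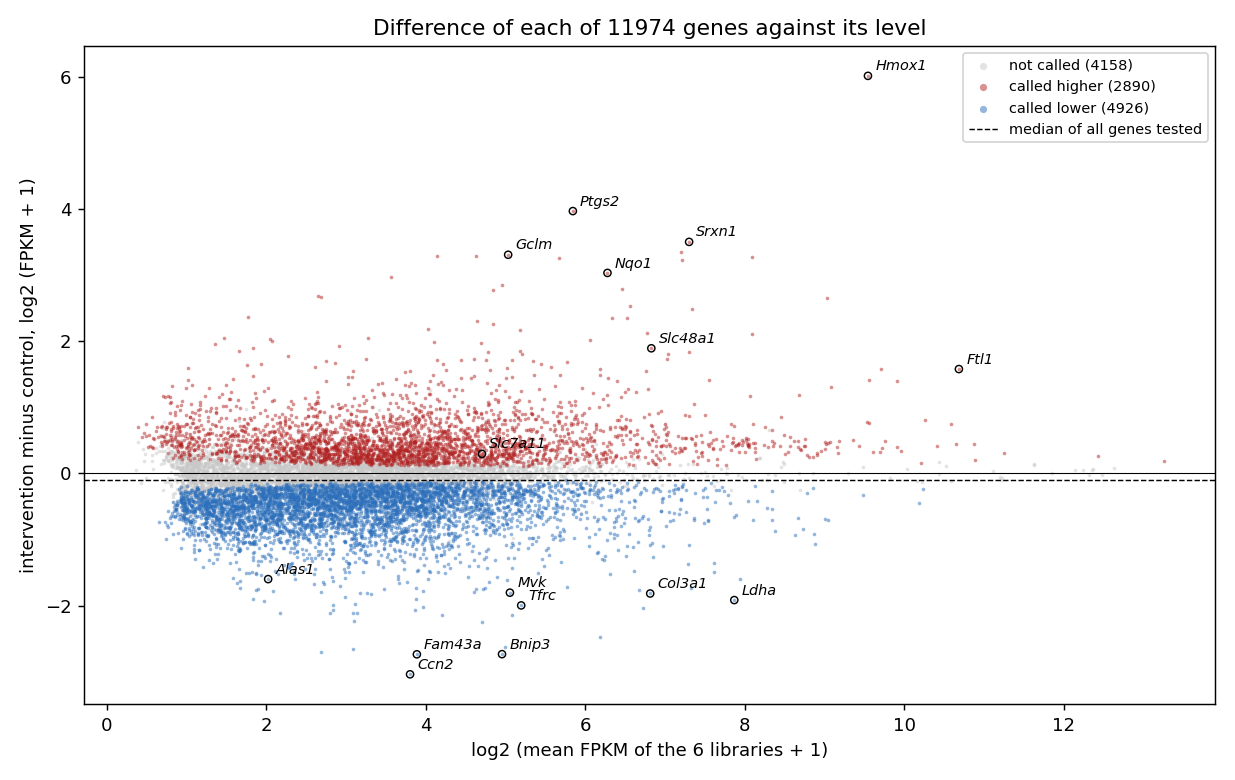
The difference of each of 11974 genes (vertical axis, intervention minus control on the log2(FPKM + 1) scale) is plotted against its mean level over the 6 libraries (horizontal axis, log2). Red and blue points are genes called higher (2890) and lower (4926), grey points were not called, and the dashed line is the median of all genes. The highest point is Hmox1, and Slc7a11 lies close to 0.

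Libraries of a group resembled each other. Across genes, which are not independent replicates, correlations were at least 0.991 within the intervention group and 0.990 within the control group, against 0.936 to 0.951 between them. FPKM summed to between 336987 and 339943 in the intervention libraries and between 316912 and 327127 in the control libraries, and the depth behind them is unknown. Intervention replicate 1 lay nearest control in 148 of the 237 genes at least 1 log2 unit higher and in 309 of the 428 that much lower. Intervention replicate 2 lay farthest in 121 and 277 of them. Defining neuronal genes were scarce: 6 of 30 listed neuronal genes reached the filter, and 5 of the 6 were called lower, beside 41.1% of all genes. After quantile normalization 4 of the 6 were called lower. Below the filter, Snap25, which codes for a protein of synaptic vesicle fusion, had 0.56, 0.45 and 0.02 FPKM in the intervention libraries and 1.05, 0.58 and 0.48 in the control libraries, and Map2, a dendritic microtubule protein, had 0.14, 0.14 and 0 against 0.22, 0.11 and 0.11. Intervention replicate 3 was the lowest of the 6 libraries in both. Syn1, which codes for a synaptic vesicle protein, had 3.02, 2.97 and 2.51 FPKM in the intervention libraries and 6.88, 5.23 and 5.93 in the control libraries, and Tubb3, a neuronal tubulin, stood at control level. Vim, the intermediate filament of mesenchymal and immature cells, was abundant in both groups, at 307, 285 and 316 FPKM in the intervention and 623, 615 and 662 in the control libraries (adjusted p = 3.08e-07). All 5 measured fibroblast markers were called lower, beside 41.1% of all genes, and 4 of them also under median-ratio scaling. Their summed FPKM lay between 1112 and 1491 in the intervention and between 1870 and 2139 in the control libraries. Whether fewer cells of a kind or less RNA per cell underlies such a difference cannot be told apart in bulk RNA.

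Genes of heme handling differed in both directions. Hmox1, heme oxygenase 1, which opens the heme ring and frees iron, carbon monoxide and biliverdin, showed the largest difference of any gene named here. It had 1266, 1674 and 1466 FPKM in the intervention libraries and 22.2, 18.6 and 24.4 in the control libraries, a 67.6-fold ratio of means (log2 difference 6.01, SE 0.12, adjusted p = 7.33e-10). In the experimental libraries it stood at 2350.1, 1957 and 2326, above each intervention library. The gene lies at chr8:75093621-75100589 on mm10. Slc48a1, the transporter that carries heme out of the endolysosome, had 185, 168 and 181 FPKM against 45.5, 51.1 and 45.0 (log2 difference 1.89, SE 0.07, adjusted p = 3.60e-08). Flvcr1, a heme and choline transporter of the cell surface, had 21.3, 24.2 and 23.7 against 8.15, 8.12 and 8.05 (log2 difference 1.40, adjusted p = 1.00e-07). Alas1, the first and rate-limiting enzyme of heme synthesis, went the other way, with 1.04, 1.11 and 0.910 FPKM in the intervention and 5.09, 5.08 and 5.16 in the control libraries (log2 difference -1.60, SE 0.08, adjusted p = 1.66e-07). No intervention value overlapped a control value in these 4 genes, which also held for 68.7% of all genes and so does not set them apart. Over the 17 measured genes of heme breakdown, synthesis and transport, 7 were called higher, 9 lower and none stood at control level, with a median difference of -0.21 beside -0.10 for all genes. Of all genes, 24.1% were called higher, 41.1% lower, and 24.1% stood at control level. Under median-ratio scaling 7 of the 17 were higher and 7 lower. The summed FPKM of the 17 genes, most of it Hmox1 in the intervention libraries, made up 0.498% to 0.618% of each intervention library and 0.0814% to 0.0832% of each control library.

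In iron handling, storage genes were higher and the uptake receptor was lower. Ftl1, the ferritin light chain, had 2511, 2453 and 2426 FPKM in the intervention libraries and 801, 844 and 827 in the control libraries (log2 difference 1.58, SE 0.05, adjusted p = 1.04e-08). Fth1, the ferritin heavy chain with the ferroxidase site, had 1237, 1239.9 and 1271 against 401, 401 and 452 (log2 difference 1.58, adjusted p = 3.48e-08). Both chains rose by nearly the same factor, 2.99-fold and 2.99-fold, though reads of near-identical ferritin copies may be shared. Tfrc, the transferrin receptor that brings iron into the cell, had 11.8, 15.7 and 13.8 FPKM against 56.3, 59.5 and 56.9 in control (log2 difference -2.00, SE 0.12, adjusted p = 6.35e-07). In the experimental libraries Tfrc was 23.8, 16.8 and 20.7, and each intervention library lay below all of them. Cp, the ferroxidase ceruloplasmin, fell as well, from 23.7 ± 0.497 to 13.3 ± 0.750 FPKM (mean ± SD, n = 3 each; adjusted p = 8.34e-07). Of the iron genes, 3 stood at control level. Pcbp1, an iron chaperone that loads ferritin, had 150.1, 149.8 and 160.3 FPKM against 161, 165 and 157 and was one of them, with Aco1, the iron regulatory protein 1, and Ncoa4, the receptor for ferritin breakdown. Ncoa4 was also called higher, by 0.15 on the log2 scale, a call lost in 14 of 18 alternatives. Of 16 measured iron genes, 9 were called higher and 5 lower, beside 24.1% and 41.1% of all genes. The list held 1.23% of summed FPKM in the intervention libraries against 0.543% to 0.571% in control.

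**Figure D2:**
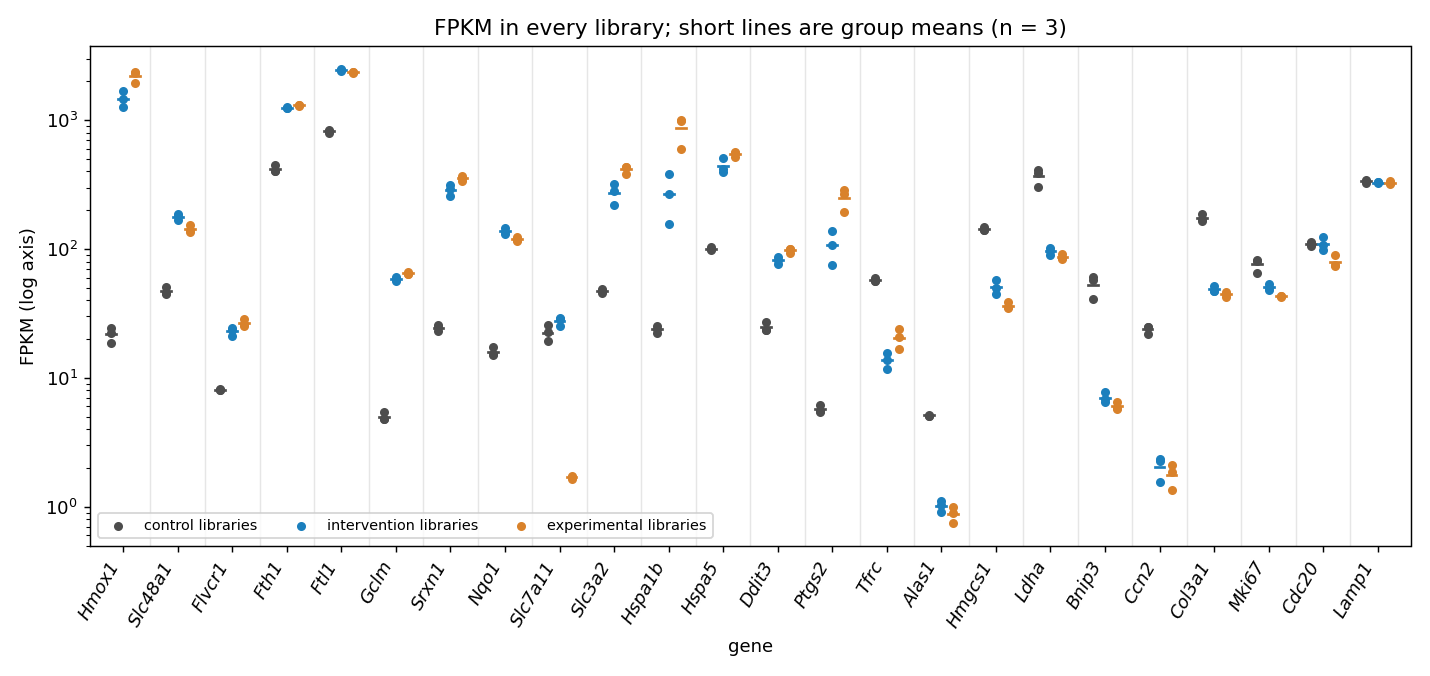
FPKM on a log axis in each control (grey), intervention (blue) and experimental (orange) library for 24 genes, with short lines at the group means (n = 3). Intervention libraries sit far above control for Hmox1, the NRF2 targets and the ferritins, far below for Tfrc, Alas1, Ccn2 and Bnip3, and beside control for Slc7a11, Cdc20 and Lamp1.

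NRF2 targets were the list with the largest median difference. Of 34 measured targets, 29 were called higher and 2 lower (Idh1 and Ugdh), 2 stood at control level, and the median was 1.46 beside -0.10 for all genes. In glutathione synthesis, Gclm, the modifier subunit of the rate-limiting ligase, had 56.3, 60.6 and 58.4 FPKM in the intervention libraries and 4.80, 5.42 and 4.81 in the control libraries, 11.7-fold apart (log2 difference 3.31, SE 0.05, adjusted p = 4.66e-10). Srxn1, sulfiredoxin, which repairs over-oxidised peroxiredoxins, had 259, 314 and 294 against 24.99, 25.6 and 23.0 (log2 difference 3.50, SE 0.07, adjusted p = 8.45e-10). Txnrd1, the cytosolic thioredoxin reductase, had 144, 178 and 159 against 26.7, 25.6 and 28.4 (log2 difference 2.53, adjusted p = 1.72e-08). These are enzymes of the glutathione and thioredoxin systems, and in each the lowest intervention library was several times the highest control library.

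Several detoxifying enzymes were also among the genes called higher. Nqo1, a quinone reductase, had 145, 136 and 132 FPKM in the intervention and 15.4, 17.3 and 15 in the control libraries (log2 difference 3.03, adjusted p = 7.33e-10). Gsta4, the glutathione transferase that clears 4-hydroxynonenal, a product of lipid peroxidation, had 286, 245 and 267 against 30.0, 28.2 and 24.4 (log2 difference 3.23, adjusted p = 5.39e-09). Aldh3a1, an aldehyde dehydrogenase, had 11.7, 9.65 and 9.09 against 0.790, 0.610 and 0.870 (log2 difference 2.66, adjusted p = 3.48e-08). All 3 are enzymes that neutralise reactive carbonyls or quinones. All 3 had higher means than in the experimental group, where Nqo1 averaged 119 ± 3.90, Gsta4 219.9 ± 12.2 and Aldh3a1 8.38 ± 0.406 FPKM (SD, n = 3). Aldh3a1 was not called against the experimental group (adjusted p = 0.0871). The median difference of all genes in that comparison was 0.095. Pgd, an NADPH-yielding enzyme of the pentose phosphate pathway, had 137, 135 and 132 FPKM against 26.04, 24.8 and 25.6 (log2 difference 2.36, adjusted p = 4.94e-10). Osgin1, an oxidative stress growth inhibitor, had 16.3, 22.4 and 21.5 against 1.88, 1.45 and 1.70 (log2 difference 2.97, adjusted p = 5.04e-08). Sqstm1, the autophagy receptor p62 that also binds KEAP1, had 801, 984 and 927 against 144, 145 and 137 (log2 difference 2.66, adjusted p = 9.75e-09). Osgin1 and Sqstm1 differed from the enzymes before them in standing below the experimental means of 31.2 ± 2.36 and 1144 ± 51.9. One target, Akr1b8, an aldose reductase, stood at control level with 62.1, 62.5 and 66.3 FPKM against 63.7, 64.0 and 64.3.

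The transcripts of the regulators themselves changed less. Nfe2l2, which codes for NRF2, had 34.1, 37.8 and 35.5 FPKM against 25.03, 26.4 and 25.5 (log2 difference 0.47, adjusted p = 2.19e-05). Mafk and Maff, small MAF partners of NRF2, averaged 15.5 ± 2.13 and 10.7 ± 2.01 FPKM in the intervention and 7.97 ± 0.405 and 5.85 ± 0.512 in the control libraries, both called higher. Keap1, the NRF2 inhibitor, stood at control level with 19.8, 18.6 and 20.5 FPKM against 17.4, 17.2 and 17.9, and so did Cul3, its ubiquitin ligase scaffold. Of the 6 regulators, 5 were called higher (Cul3 among them, by a log2 difference of 0.12) and none lower. The call of Cul3 held in 11 of 18 alternatives. Among others, it was lost on TPM and without intervention replicate 2 or 3 or control replicate 1.

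The antioxidant response element, which NRF2 and BACH1 bind, has the core TGACNNNGC. It was searched on both strands from 250 bases before to 50 after each RefSeq transcript start. Of 28 NRF2 targets with a window, 11 held it, in 34.3% of their windows against 12.4% of all 32851 windows. The upstream 250 bases of Gclm are printed because this gene joins a large difference with a match. They are RefSeq sequence on GRCm38.p6, chr3:122245307-122245556, plus strand, read 5′ to 3′, with the match in capitals (here on the opposite strand, 134 bases before the start).
Gclm: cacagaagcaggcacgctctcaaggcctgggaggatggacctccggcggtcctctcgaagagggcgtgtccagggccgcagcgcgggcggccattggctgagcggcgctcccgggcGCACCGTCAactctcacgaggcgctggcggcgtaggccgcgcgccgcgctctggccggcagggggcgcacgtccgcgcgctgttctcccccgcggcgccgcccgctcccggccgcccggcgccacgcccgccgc

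Slc7a11, the cystine importer of system xc- and itself an NRF2 target, stood close to control. It had 28.6, 25.4 and 29.1 FPKM in the intervention libraries and 19.2, 25.6 and 22.5 in the control libraries, and the groups overlapped. The log2 difference was 0.30 (95% interval 0.09 to 0.50, adjusted p = 0.0174), so the gene was called higher and its interval runs past the control-level margin. The call was lost without intervention replicate 1, intervention replicate 3 or control replicate 1, and with no filter on low values (highest adjusted p = 0.0617). In the experimental libraries Slc7a11 was 1.71, 1.65 and 1.74 FPKM, which places all 6 intervention and control libraries more than 10-fold above them. Its partner Slc3a2, the heavy chain shared by several amino acid exchangers, did not stand at control level: it had 221, 317 and 281 FPKM against 45.3, 49.1 and 47.5 (log2 difference 2.49, adjusted p = 1.30e-07). Slc7a11 lies at chr3:49892526-50443614 on mm10.

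Other genes of ferroptosis mostly fell or stayed. Of 13 measured guards and drivers, 8 were called lower, 2 higher, and 3 stood at control level, with a median of -0.36. Of all genes, 41.1% were called lower, 24.1% higher, and 24.1% stood at control level. Under median-ratio scaling 6 of the 13 were lower and 3 higher. Lpcat3, which puts polyunsaturated fatty acids into phospholipids, had 6.02, 6.09 and 7.65 FPKM against 15.5, 16.8 and 14.9 (log2 difference -1.15, adjusted p = 1.62e-06). Acsl4, which activates those fatty acids and is a driver of ferroptosis, had 24.5, 25.4 and 24.3 against 31.6, 34.9 and 34.5 (log2 difference -0.43, adjusted p = 5.42e-05). Acsl3, which favours monounsaturated fatty acids and is counted as a guard, fell too, from 42.7 ± 1.42 to 22.2 ± 1.17 FPKM. Gpx4, the peroxidase that removes lipid hydroperoxides, had 83.9, 70.0 and 74.6 against 90.9, 99.0 and 80.2, overlapping, with adjusted p = 0.0383, a call lost without intervention replicate 2 or 3 or control replicate 1 or 2 and after median-ratio scaling (highest adjusted p = 0.339). The Gpx4 call held in 9 of 18 alternatives. Sat1, a polyamine acetyltransferase, and Cyb5r1, a reductase that gives electrons to oxygen, were the 2 called higher, with means of 109.5 and 40.1 FPKM against 76.4 and 18.02. Por, the cytochrome P450 reductase, and the outer-membrane channels Vdac2 and Vdac3 stood at control level.

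Chaperone genes were called higher throughout the list: 27 of 27 measured heat shock genes, with a median of 0.91, and 26 of them also on TPM. Their summed FPKM made up 2.27% to 2.93% of each intervention library, 1.27% to 1.30% of each control library and 3.43% to 4.09% of each experimental library. Hspa1b, a stress-inducible Hsp70, had 157, 380.2 and 268 FPKM in the intervention and 23.8, 22.3 and 25.4 in the control libraries (log2 difference 3.35, SE 0.29, adjusted p = 5.18e-06). Its neighbour Hspa1a had 54.5, 128 and 93.4 against 8.76, 7.66 and 8.20 (log2 difference 3.25, SE 0.27, adjusted p = 4.45e-06). Intervention replicate 2 had more than 2-fold the level of replicate 1 in both genes, and the experimental means were higher still, at 868 ± 230.2 and 304 ± 74.8 FPKM. The genes are near-identical copies, so reads may be shared between them. Hspb8, a small heat shock protein, had 181, 205 and 210.2 FPKM against 56.5, 64.0 and 57.7 (log2 difference 1.73, adjusted p = 7.61e-08), and Ubb, a polyubiquitin gene, had 984, 1135 and 1179 against 439, 418 and 373 (log2 difference 1.42, adjusted p = 5.55e-07). Hsf1, the factor that drives this list and the member with the weakest call (adjusted p = 0.0462, lost in 13 of 18 alternatives), stood at control level by its interval, at 10.96, 11.1 and 12.4 FPKM against 9.93, 10.4 and 10.5.

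The heat shock element was searched as GAANNTTC, which reads the same on both strands. Of 20 heat shock genes with a window, 10 held it, in 40.7% of their windows against 7.86% of all windows. Both Hsp70 genes are shown because they are the list's largest differences and their promoters are nearly the same: 247 of 250 upstream bases are alike. The sequences are RefSeq, GRCm38.p6, minus strand, chr17:34972157-34972406 for Hspa1a and chr17:34959239-34959488 for Hspa1b, with the element in capitals 104 bases before the start in each.
Hspa1a: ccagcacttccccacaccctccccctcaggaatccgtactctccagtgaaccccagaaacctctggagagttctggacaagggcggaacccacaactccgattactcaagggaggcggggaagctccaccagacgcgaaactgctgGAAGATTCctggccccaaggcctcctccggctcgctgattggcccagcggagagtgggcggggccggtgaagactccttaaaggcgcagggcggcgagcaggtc
Hspa1b: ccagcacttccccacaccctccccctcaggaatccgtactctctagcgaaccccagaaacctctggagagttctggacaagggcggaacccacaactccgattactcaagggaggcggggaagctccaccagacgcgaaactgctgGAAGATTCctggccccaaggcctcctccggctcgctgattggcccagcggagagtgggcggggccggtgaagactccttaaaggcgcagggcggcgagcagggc

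Proteasome genes moved as evenly as any list. All 32 measured subunits were called higher, also under median-ratio scaling, quantile normalization and TPM, and the list median was 0.69. The base ATPase Psmc2 had 44.4, 44.6 and 42.9 FPKM in the intervention libraries and 17.9, 17.97 and 17.97 in the control libraries (log2 difference 1.246, adjusted p = 5.40e-08). The lid subunit Psmd11 had 48.0, 50.8 and 52.4 against 19.6, 21.0 and 21.7 (log2 difference 1.24, adjusted p = 9.30e-08). Nfe2l1, which codes for the factor that renews proteasome subunits, rose less, from 66.2 ± 3.65 to 82.9 ± 1.05 FPKM (adjusted p = 3.29e-04). Autophagy and lysosome genes showed no such evenness, with 11 of 36 called higher, 14 lower and 10 at control level. These shares are near the 24.1%, 41.1% and 24.1% of all genes. Under median-ratio scaling 17 were higher and 8 lower. Gabarapl1, an autophagosome protein, had 112, 108 and 100.2 FPKM against 36.8, 35.1 and 39.8 (log2 difference 1.496, adjusted p = 5.40e-08), while Becn1, which starts autophagosomes, and Lamp1, the main lysosomal membrane protein, stood at control level with 14.8, 14.7 and 14.5 against 14.1, 14.5 and 14.2 and 331, 325 and 329 against 335, 343 and 326. Lamp1 depended on the scaling. Its call changed under median-ratio scaling, quantile normalization and TPM, and its log2 difference ran from -0.21 to 0.12 over 18 alternatives.

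The integrated stress response, the ATF4 program, was called higher in 29 of 31 measured genes and lower in 1 (Ddit4), with a median of 0.83. Ddit3, which codes for CHOP, had 76.5, 87.2 and 82.8 FPKM against 27.2, 23.7 and 23.5 (log2 difference 1.69, adjusted p = 7.61e-08). Cth, which makes cysteine from cystathionine, had 38.1, 43.6 and 40.0 against 6.65, 8.17 and 7.32 (log2 difference 2.31, adjusted p = 5.83e-08). Slc1a4, a neutral amino acid carrier, had 50.04, 61.6 and 55.5 against 14.8, 15.4 and 14.0 (log2 difference 1.85, adjusted p = 5.92e-08). Slc6a9, a glycine carrier, had means of 107.4 and 35.5 FPKM, and Nupr1, a stress-induced nuclear protein, 48.8 and 17.1. Atf4 itself rose by less, from 215 ± 11.5 to 309 ± 4.85 FPKM (adjusted p = 8.91e-06). Chac1, which breaks down glutathione, rose from 34.2 ± 0.864 to 51.7 ± 3.76. The motif TGATGNAA of C/EBP-ATF dimers lay in 7 of the 28 genes with a window and in 7 of their 35 windows (20%), against 3.97% of all windows.

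Cytosolic aminoacyl-tRNA synthetases, which ATF4 also drives, were called higher in 15 of 20 measured genes and lower in 2, Dars and Mars1, while 4 stood at control level. Nars had 136, 141 and 138 FPKM against 57.4, 60.4 and 56.9 (log2 difference 1.23, adjusted p = 5.40e-08), and Eprs had 24.1, 25.6 and 23.8 against 12.8, 12.3 and 12.6 (log2 difference 0.91, adjusted p = 2.09e-07). By contrast Qars had 19.7, 19.0 and 19.0 against 19.7, 19.3 and 18.4, Vars 45.7, 43.7 and 44.5 against 44.6, 43.7 and 49.3 and Hars 33.0, 34.4 and 34.0 against 32.2, 31.6 and 30.3, all at control level and not called. Farsa, the fourth, was called higher by 0.20 on the log2 scale (adjusted p = 0.00785). Nars and Eprs charge asparagine, glutamate and proline, and Qars, Vars and Hars charge glutamine, valine and histidine.

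In the unfolded protein response, 23 of 26 measured genes were called higher and 1 lower, with a median of 0.45. Hspa5, the ER chaperone BiP, had 394, 512 and 416 FPKM in the intervention and 97.8, 104 and 100.2 in the control libraries (log2 difference 2.11, SE 0.09, adjusted p = 8.04e-08). Dnajb9, a co-chaperone of BiP, had 24.3, 31.5 and 25.9 against 8.30, 8.5 and 7.02 (log2 difference 1.65, adjusted p = 8.11e-07). Xbp1, whose spliced form drives the response, rose from 13.8 ± 0.855 to 26.1 ± 0.640 FPKM, and Herpud1, of ER-associated degradation, from 43.1 ± 1.46 to 81.8 ± 5.50. P4hb, an abundant disulfide isomerase, stood at control level with 236, 238 and 241 against 245, 250.1 and 231, and so did Edem1, by its interval, although it was called. The call of P4hb changed under median-ratio scaling and quantile normalization, and its log2 difference ran from -0.25 to 0.12 over 18 alternatives. The ER stress element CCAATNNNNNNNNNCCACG lay in the windows of 8 of 22 genes (34.8% of windows, against 0.12% of all windows), that of Hspa5 among them.

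**Figure D3:**
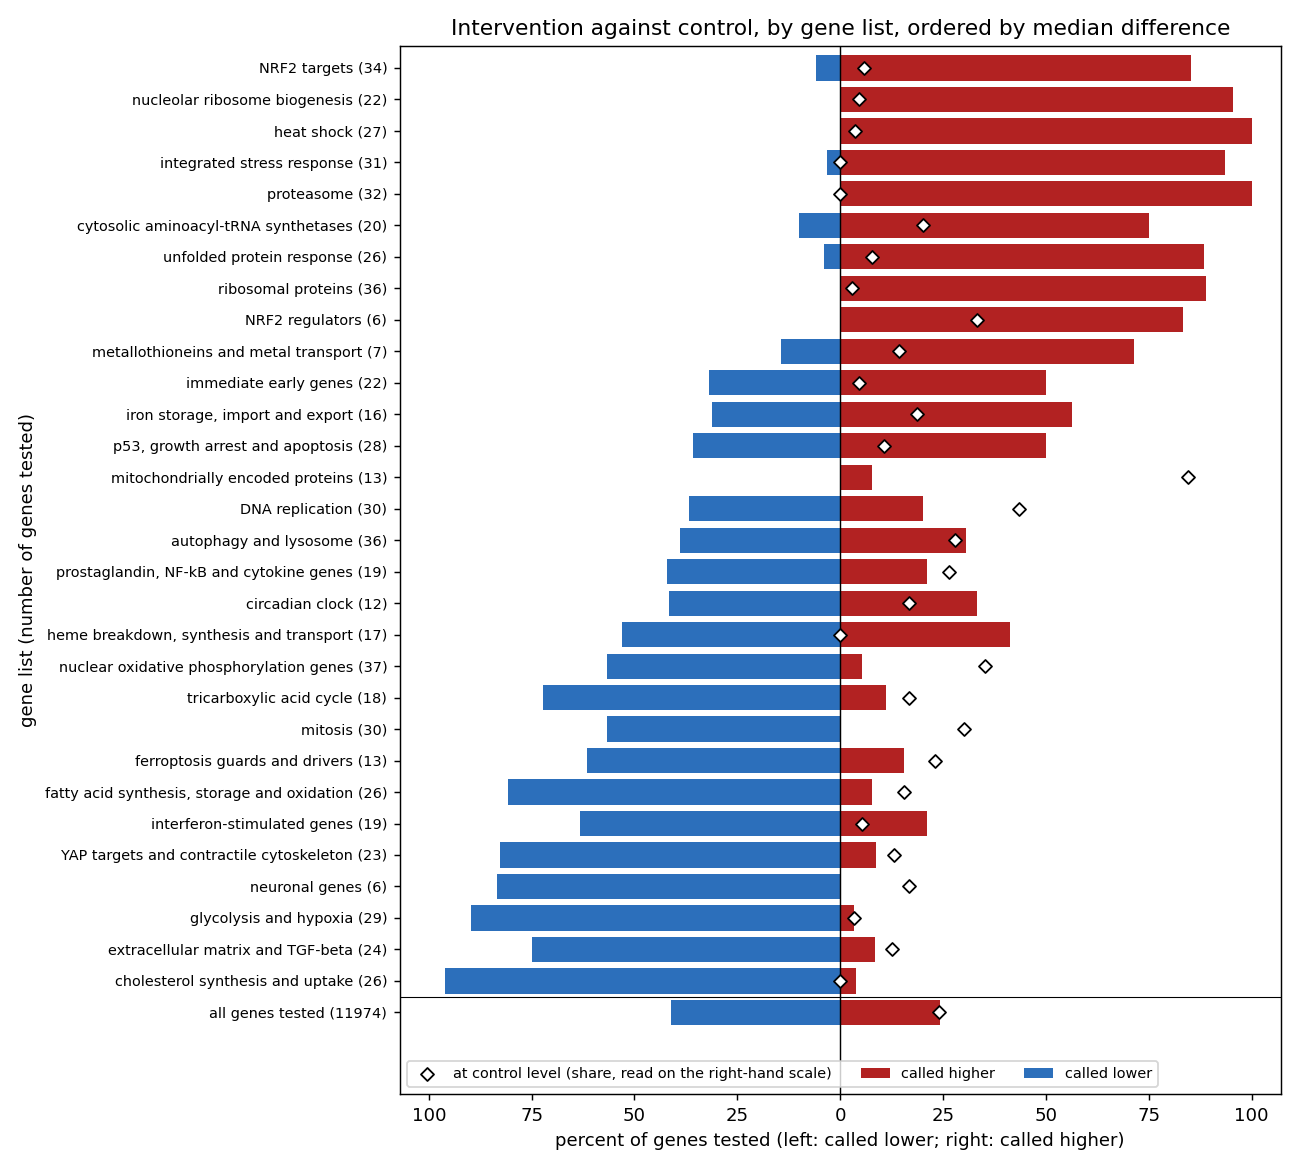
For each gene list with at least 6 measured genes, red bars give the percent of genes called higher and blue bars the percent called lower in the intervention group, ordered by median difference. Diamonds give the percent at control level, and the bottom row gives all 11974 genes (24.1% higher, 41.1% lower, 24.1% at control level). NRF2 targets stand at the top and cholesterol synthesis at the bottom.

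Ribosome genes rose as well. All but 1 of 22 measured nucleolar genes of ribosome assembly were called higher, with a median of 0.94, and the exception, Ubtf, a factor of ribosomal RNA transcription, stood at control level with 28.6, 27.3 and 28.1 FPKM against 26.9, 27.5 and 28.5. Dkc1, the pseudouridine synthase of ribosomal RNA, had 38.1, 39.9 and 37.0 against 15.6, 16.3 and 16.1 (log2 difference 1.21, adjusted p = 8.04e-08). Nop2, a ribosomal RNA methyltransferase, rose from 27.1 ± 1.09 to 60.2 ± 1.76 FPKM. Ribosomal protein genes were called higher in 32 of 36 with a smaller median of 0.42, and Rpl8 had 1573, 1480.2 and 1585 FPKM against 1167, 1178 and 1139 (log2 difference 0.41, adjusted p = 3.91e-05). After quantile normalization 23 of the 36 were called higher and 2 lower. These genes have many pseudogenes, so single values are uncertain.

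Among growth arrest genes, Gadd45a, which is induced by DNA damage and by ATF4, had 42.8, 49.1 and 47.8 FPKM in the intervention and 9.46, 8.53 and 8.90 in the control libraries (log2 difference 2.25, adjusted p = 3.48e-08). Cdkn1a, the cell-cycle inhibitor p21, had 60.9, 69.1 and 66.1 against 37.9, 33.6 and 31.1 (log2 difference 0.92, adjusted p = 4.20e-06). Trp53 and Mdm2, the p53 gene and its ubiquitin ligase, rose from 53.2 ± 1.63 and 24.1 ± 1.19 to 83.1 ± 4.30 and 38.5 ± 1.46 FPKM. Over 28 measured genes of p53, growth arrest and apoptosis, 14 were called higher and 10 lower, beside 24.1% and 41.1% of all genes. Apaf1 and Bid, which act in caspase activation, stood at control level.

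Immediate early and inflammatory genes gave single large values in mixed lists. Ptgs2, cyclooxygenase 2, which starts prostaglandin synthesis, had 75.3, 139 and 106.9 FPKM in the intervention and 5.54, 5.39 and 6.21 in the control libraries, 18.8-fold apart (log2 difference 3.97, SE 0.20, adjusted p = 2.44e-07). Its constitutive sister Ptgs1 stood at control level with 22.5, 23.1 and 23.3 against 23.0, 21.4 and 22.8. Fosl1, an AP-1 subunit, had 38.4, 60.7 and 62.3 against 6.65, 6.30 and 6.38 (log2 difference 2.85, adjusted p = 5.55e-07). Ier3, an early response gene, had 127, 168 and 162 against 22.8, 22.1 and 18.5 (log2 difference 2.79, adjusted p = 9.69e-08). Ptgs2, Fosl1 and Ier3 were all higher again in the experimental libraries, with means of 249, 91.9 and 249 FPKM. Of 22 immediate early genes, 11 were called higher and 7 lower, beside 24.1% and 41.1% of all genes. Npas4, an activity-driven factor of neurons, was among the lower ones at 0.690, 0.680 and 0.870 FPKM against 3.52, 3.60 and 3.12.

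Genes of the NF-kB pathway differed among themselves. Rela, Nfkb2, Nfkbie and Cxcl1, which code for pathway subunits, an inhibitor and a chemokine, stood at control level, while Nfkb1, a further subunit, was called lower by 0.48 on the log2 scale. Ccl7, another chemokine, had 49.9, 36.6 and 39.8 FPKM in the intervention and 101, 114 and 96.9 in the control libraries (log2 difference -1.30, adjusted p = 7.29e-06), and Vcam1, a leukocyte adhesion protein, fell from 26.4 ± 0.386 to 11.7 ± 1.15 FPKM. The list had 4 of 19 called higher and 8 lower, shares near the 24.1% and 41.1% of all genes, but 7 and 6 under median-ratio scaling. Procr, the endothelial protein C receptor and no member of that list, was among the 15 largest higher differences, with 42.9, 52.2 and 52.7 against 5.88, 6.33 and 6.70 (log2 difference 2.78, adjusted p = 1.21e-08). Interferon-stimulated genes were called lower in 12 of 19 and higher in 4. Ifit1, an antiviral RNA-binding protein, had 1.11, 0.810 and 0.860 FPKM against 5.50, 5.24 and 6 (log2 difference -1.77, adjusted p = 6.18e-07).

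Cholesterol synthesis and uptake was the list with the lowest median, -0.97, and 25 of its 26 measured genes were called lower. The exception was Ggps1, a branch enzyme towards protein prenylation, called higher. Under each scaling alternative the count was again 25 lower and 1 higher. Mvk, mevalonate kinase, had 15.9, 11.97 and 13.7 FPKM in the intervention and 52.3, 51.4 and 48.1 in the control libraries (log2 difference -1.80, SE 0.09, adjusted p = 2.50e-07). Lss, which closes the sterol rings, had 12.8, 9.58 and 11.2 against 40.7, 38.4 and 39.4 (log2 difference -1.74, adjusted p = 2.44e-07). Hmgcs1, which makes HMG-CoA at the head of the pathway, had 57.6, 44.9 and 49.9 against 139.6, 147 and 139.8 (log2 difference -1.47, adjusted p = 3.84e-07). The list's share of summed FPKM was 0.263% to 0.305% in the intervention libraries, 0.613% to 0.631% in control and 0.234% to 0.250% in the experimental libraries.

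SREBP factors bind sterol elements, searched here as TCACNCCAC on both strands. Among 19 genes with a window the match was found in Hmgcs1 alone, and in 1.24% of all windows. Hmgcs1 is therefore printed (RefSeq, GRCm38.p6, chr13:119690101-119690350, plus strand, match in capitals 137 bases before the start).
Hmgcs1: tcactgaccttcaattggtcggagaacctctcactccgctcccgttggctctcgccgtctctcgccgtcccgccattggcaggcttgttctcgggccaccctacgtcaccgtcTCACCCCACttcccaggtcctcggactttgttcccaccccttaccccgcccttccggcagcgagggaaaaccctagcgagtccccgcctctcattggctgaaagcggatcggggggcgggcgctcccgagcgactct

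Fatty acid genes fell with the sterol genes: 21 of 26 measured genes were called lower and 2 higher, with a median of -0.56. Scd2 and Scd1, which make monounsaturated fatty acids, had 345, 305 and 314 and 44.1, 42.8 and 44.8 FPKM in the intervention libraries and 615, 594 and 613 and 85.1, 83.5 and 89.4 in the control libraries (adjusted p = 4.79e-07 and 1.73e-07). Acly, which supplies cytosolic acetyl-CoA, fell from 163 ± 6.52 to 92.9 ± 1.99 FPKM. Plin4, a lipid droplet protein, was among the 15 largest lower differences, with 2.83, 1.69 and 2.39 FPKM against 14.2, 10.8 and 14.8 (log2 difference -2.11, adjusted p = 1.24e-06). Plin2, another droplet protein, stood at control level with 56.2, 57.8 and 58.4 against 59.2, 61.1 and 55.8, together with the elongases Elovl5 and, by its interval, Elovl1.

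Glycolysis and hypoxia genes were called lower in 26 of 29, higher in 1 (Vegfa, the vascular growth factor), and the median was -0.76. Bnip3, a mitophagy receptor induced by hypoxia, had 7.79, 6.84 and 6.48 FPKM in the intervention and 60.4, 57.4 and 41.2 in the control libraries (log2 difference -2.73, SE 0.13, adjusted p = 1.52e-07). Pdk1, which keeps pyruvate out of mitochondria, had 1.51, 1.27 and 1.19 against 15.9, 13.6 and 11.7 (log2 difference -2.66, adjusted p = 5.40e-08). Pfkl, a phosphofructokinase, had 8.79, 6.94 and 7.88 against 63.5, 52.0 and 45.7 (log2 difference -2.62, adjusted p = 1.38e-07). Ldha, lactate dehydrogenase A, had 103, 90.2 and 96.3 against 409, 392 and 306 (log2 difference -1.92, adjusted p = 2.95e-07). In each of the 4, control replicate 3 was the lowest control library, and the highest intervention library was still far below it. Ndrg1, which hypoxia and iron loss induce, stood at control level with 38.1, 41.9 and 44.6 FPKM against 44.5, 38.5 and 35.9. Bhlhe40, a clock and hypoxia-responsive repressor, fell from 23.5 ± 1.36 to 7.13 ± 0.721 FPKM.

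The core of the hypoxia element is ACGTG, searched on both strands. It was found in 17 of 27 genes and 46.5% of their windows, against 19.6% of all windows. Ldha is shown because it holds 5 matches, which overlap where ACGTG and its reverse complement share bases (RefSeq, GRCm38.p6, chr7:46845554-46845803, plus strand, matches in capitals).
Ldha: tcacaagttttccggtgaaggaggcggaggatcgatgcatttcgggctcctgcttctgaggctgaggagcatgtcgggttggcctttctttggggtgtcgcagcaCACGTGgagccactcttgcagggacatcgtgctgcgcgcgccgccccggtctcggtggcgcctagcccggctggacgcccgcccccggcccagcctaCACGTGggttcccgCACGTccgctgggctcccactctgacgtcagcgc

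Of 13 proteins encoded in mitochondrial DNA, 11 stood at control level and 1, mt-Co1, was called higher by 0.18 on the log2 scale, a call lost in 12 of 18 alternatives. mt-Cytb, of complex III, had 4925, 5189 and 5048 FPKM in the intervention libraries and 4856, 5447 and 5128 in the control libraries. This list moves with the scaling, with 6 of 13 called higher under median-ratio scaling and 3 of 13 lower after quantile normalization. Of 37 nuclear genes of oxidative phosphorylation, 21 were called lower, 2 higher, and 13 stood at control level, but under median-ratio scaling 12 were lower and 5 higher. The shares over all genes were 41.1% lower, 24.1% higher and 24.1% at control level. Sdha, of complex II, had 36.4, 31.4 and 32.5 FPKM against 56.4, 56.6 and 53.6 (log2 difference -0.72, adjusted p = 9.41e-06), and Uqcrc1, of complex III, fell from 44.1 ± 1.14 to 30.8 ± 1.93 FPKM. Ndufa10, of complex I, had 29.8, 30.6 and 29.2 against 28.9, 31.3 and 29.2, and the 7 Cox genes of complex IV in this list (Cox4i1, Cox5a, Cox5b, Cox6a1, Cox6c, Cox7a2 and Cox8a) were at control level by the interval. Cox4i1 and Cox5a were also called, with log2 differences of 0.19 and -0.18. The call of Cox4i1 was lost after quantile normalization and on TPM, and that of Cox5a under median-ratio scaling and without intervention replicate 2. In the tricarboxylic acid cycle 13 of 18 genes were called lower and 2 higher, but 9 lower and 4 higher under median-ratio scaling. Idh2, the mitochondrial NADP-dependent isocitrate dehydrogenase, fell from 105 ± 2.49 to 68.4 ± 4.65 FPKM, while Cs, citrate synthase, stood at control level with 82.6, 87.6 and 89.1 against 83.0, 86.1 and 81.2.

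Matrix and YAP target genes were mostly called lower. Ccn2, connective tissue growth factor, a secreted protein driven by YAP and TGF-beta, had 2.25, 1.55 and 2.33 FPKM in the intervention and 24.9, 24.8 and 21.8 in the control libraries, 11.7-fold apart (log2 difference -3.04, SE 0.13, adjusted p = 7.86e-08). Col3a1, a fibrillar collagen, had 52.0, 47.2 and 47.0 against 172, 164 and 186 (log2 difference -1.82, adjusted p = 3.31e-08). Lox, which cross-links collagen, had 79.7, 70.9 and 68.5 against 238, 242 and 253 (log2 difference -1.73, adjusted p = 3.48e-08). Cav1, the caveolar coat protein, had 45.8, 38.6 and 37.5 against 161, 175 and 172 (log2 difference -2.04, adjusted p = 9.26e-08). The groups were far apart in all 4 genes. Of 24 measured matrix genes 18 were called lower and 2 higher (median -0.81), and of 23 YAP and contractile genes 19 lower and 2 higher (median -0.64). Cnn2, a calponin of actin filaments, fell from 54.1 ± 4.46 to 11.7 ± 2.45 FPKM. Yap1 itself stood at control level with 11.6, 12.1 and 12.3 FPKM against 11.3, 11.6 and 10.7, as did the basement-membrane collagens Col4a1 and Col4a2 and the integrin Itga5.

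Several other genes among the 15 largest lower differences code for matrix, surface or developmental proteins. Fam43a, a gene of little known function, had 3.03, 2.76 and 2.81 FPKM in the intervention and 25.3, 24.5 and 24.4 in the control libraries (log2 difference -2.74, adjusted p = 7.33e-10). Prelp, a collagen-anchoring proteoglycan, had 0.860, 0.560 and 0.690 against 9.31, 9.62 and 11.4 (log2 difference -2.70, adjusted p = 3.48e-08). Adamts5, an aggrecan-cleaving protease, had 2.31, 1.77 and 2 against 12.8, 12.7 and 14.0 (log2 difference -2.23, adjusted p = 3.31e-08). The secreted serine protease Prss23 and the transcription factor Osr1 fell from 122 ± 5.09 and 41.8 ± 1.69 to 21.4 ± 4.39 and 8.10 ± 1.06 FPKM. Cd248, a surface glycoprotein of mesenchymal cells, fell from 12.8 ± 0.466 to 2.19 ± 0.197, and C1qtnf1, a secreted C1q-like protein, from 6.33 ± 0.377 to 0.693 ± 0.153. Trp53inp2, which takes part in autophagy, and Tmem119, a membrane protein known from microglia and bone cells, fell from 29.1 ± 1.37 and 10.3 ± 0.805 to 5.86 ± 0.775 and 1.63 ± 0.331. The 30 genes named for the size of their difference were taken from those whose groups do not overlap, so their lack of overlap is part of how they were chosen. Tmem119 and Cd68 were the 2 microglia or blood markers of 12 that reached the filter, and they moved in opposite directions, with Cd68 at 2.17, 1.88 and 1.96 against 1.12, 1.09 and 1.47.

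**Figure D4:**
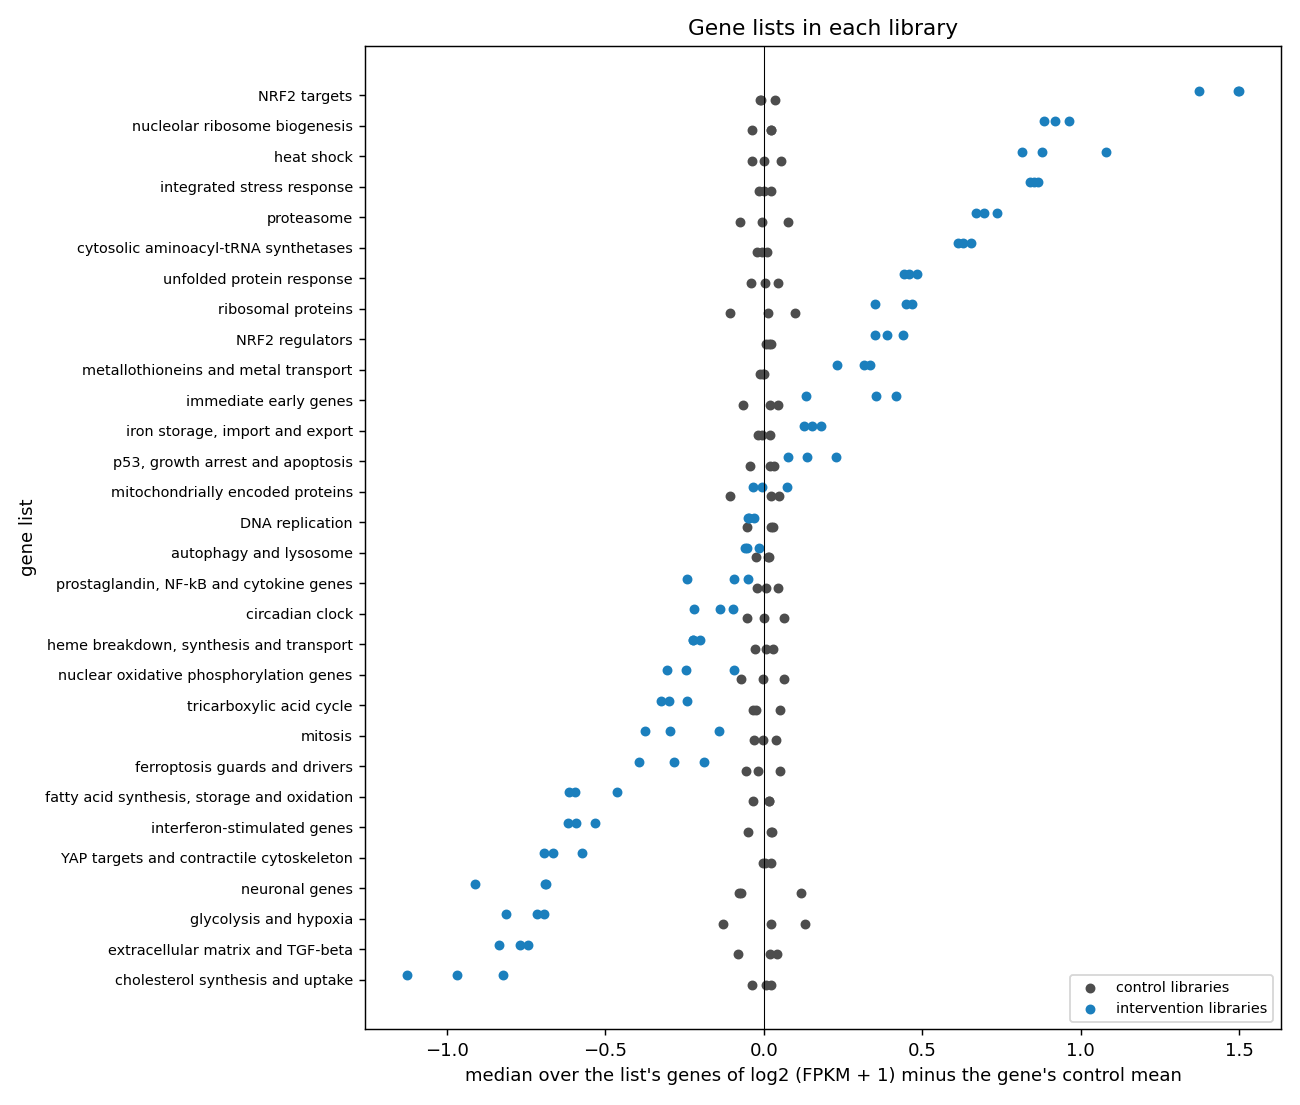
For each gene list, a point gives the median over its genes of log2(FPKM + 1) minus the gene's control mean, for each of the 3 intervention (blue) and 3 control (grey) libraries. Control libraries lie near 0 throughout. The 3 intervention libraries keep apart from them at both ends, from NRF2 targets on the right to cholesterol synthesis on the left, and lie among them for mitochondrially encoded proteins.

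Of 30 measured mitosis genes, 17 were called lower and none higher, with a median of -0.30, and 9 stood at control level, a share near the 24.1% of all genes. Of all genes, 41.1% were called lower and 24.1% higher, with a median of -0.10. Under median-ratio scaling 12 were called lower and 2 higher. Cdc20, which activates the anaphase-promoting complex, had 124, 98.7 and 108 FPKM in the intervention and 106, 111 and 114 in the control libraries. Cdk1, the mitotic kinase, had 32.1, 27.9 and 29.6 against 31.6, 36.3 and 28.8. Both stood at control level, as did Bub1b, Cenpe, Cenpf, Incenp, Mad2l1 and Ndc80 of the kinetochore and spindle checkpoint and, by its interval, Tpx2 of the spindle. Mki67, the proliferation marker, did not: it had 53.7, 49.8 and 48.5 against 81.3, 65.5 and 82.2 (log2 difference -0.58, adjusted p = 1.45e-04). Ccnb2 and Ccna2, mitotic cyclins, fell from 12.01 ± 1.08 and 69.0 ± 5.42 to 5.94 ± 1.06 and 46.2 ± 3.06 FPKM. In the experimental group, which shares the control libraries in its own comparison, 29 of the 30 were called lower than control with a median of -0.70. Of all genes, 50.5% were called lower in that comparison, with a median of -0.21. Cdc20 averaged 79.3 ± 8.60 and Cdk1 24.9 ± 1.81 FPKM in the experimental libraries.

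The cell-cycle homology region CHR, TTTGAA, was found in 17 of 24 mitosis genes and 72.0% of their windows, against 17.9% of all windows. Mki67 is shown with its 2 matches in capitals (RefSeq, GRCm38.p6, chr7:135716380-135716629, minus strand).
Mki67: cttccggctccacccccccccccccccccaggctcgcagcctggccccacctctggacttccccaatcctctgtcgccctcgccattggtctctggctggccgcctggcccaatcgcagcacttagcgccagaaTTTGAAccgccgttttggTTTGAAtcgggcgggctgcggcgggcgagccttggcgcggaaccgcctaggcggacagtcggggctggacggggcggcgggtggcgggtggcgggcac

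Of 30 DNA replication genes, 6 were called higher and 11 lower, shares near the 24.1% and 41.1% of all genes, and 13 stood at control level. Under median-ratio scaling 10 were higher and 7 lower. Mcm7, of the replicative helicase, had 89.8, 89.8 and 93.1 FPKM against 92.5, 91.6 and 89.1, and Rrm2, of ribonucleotide reductase, 48.4, 54.4 and 50.1 against 50.6, 54.3 and 52.5, both at control level. Orc1, of the origin recognition complex, rose from 20.1 ± 0.898 to 33.7 ± 2.24 FPKM (adjusted p = 6.79e-06). Tk1, thymidine kinase, fell from 24.5 ± 1.5 to 9.93 ± 1.57 (adjusted p = 3.84e-06).

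Smaller lists gave mixed values. Of 7 metallothionein and metal transport genes, 5 were called higher and 1 lower. Mt2, a metal-binding metallothionein, had 119, 112 and 126 FPKM against 65.4, 71.0 and 66.5, and Mt1 had 125, 116 and 139.7 against 101, 99.3 and 100.4. Of 12 circadian genes, 4 were called higher and 5 lower, beside 24.1% and 41.1% of all genes. Their median was -0.15, near the -0.10 of all genes. Dbp, an output factor of the clock, had 0.860, 0.910 and 0.470 FPKM against 2.79, 2.22 and 2.27. Nr1d2, the heme-binding repressor REV-ERBbeta, had 17.9, 18.5 and 17.5 against 11.6, 12.7 and 12.6 (adjusted p = 1.88e-05). The nuclear RNAs Neat1 and Malat1, followed as signs of RNA composition, were called lower, with 6.07, 6.70 and 5.42 FPKM against 14.99, 14.2 and 20.1 and 85.7, 81.0 and 69.8 against 146, 101 and 182, and their part in other differences was not tested. Of 3 astrocyte markers that reached the filter, Gja1 was called higher and Slc1a3 and Sox9 lower. Both measured oligodendrocyte and endothelial markers, Cspg4 and Pdgfra, were called lower, as were 41.1% of all genes.

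Genes at control level were then set beside the experimental libraries to find those that stood at control level in one group and not in the other. Against control, 2809 genes (23.5%) were called higher and 6047 (50.5%) lower in the experimental group, a comparison that shares the control libraries. Of the 2079 genes at control level in the intervention group that met the level and naming rules, none differed by 1 log2 unit or more between experimental and control, and 5 differed by at least 1.5-fold. Genes with a large difference in the experimental group were thus not found at control level by this rule. Of the 12 with the largest experimental difference, 11 are named as a description, since that difference chose them.

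Hmmr, a spindle and hyaluronan-binding protein, had 19.7, 17.5 and 16.6 FPKM in the intervention, 18.3, 19.4 and 19.4 in the control and 12.1, 12.6 and 10.8 in the experimental libraries. Bub1b, a kinase of the spindle checkpoint, had 27.9, 24.1 and 25.7 FPKM in the intervention, 27.2, 27.3 and 29.2 in the control and 17.2, 21.4 and 16.7 in the experimental libraries. Gpsm2, which orients the spindle, had 21.98, 18.4 and 20.1 FPKM in the intervention, 21.9, 23.0 and 22.2 in the control and 14.7, 16.2 and 14.1 in the experimental libraries. These 3 act in mitosis, and their experimental values lay below both other groups. Timm8b, a chaperone of mitochondrial import, had 29.6, 26.7 and 26.1 FPKM in the intervention, 29.4, 31.5 and 27.6 in the control and 17.9, 20.4 and 18.6 in the experimental libraries. Borcs8, of the complex that positions lysosomes, had 7.81, 7.01 and 8.77 FPKM in the intervention, 8.21, 8.86 and 8.64 in the control and 5.63, 5.68 and 4.77 in the experimental libraries. Ddx28, a helicase of mitochondrial ribosome assembly, Adat2, a tRNA deaminase, Cfap298, a protein of cilia, and Jkamp, an ER membrane protein, behaved alike, with intervention means of 8.79, 9.87, 8.12 and 6.24 FPKM, control means of 9.20, 10.3, 8.82 and 7.12, and experimental means of 6.15, 6.89, 5.78 and 4.57.

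The other two lay above control in the experimental libraries. Errfi1, a feedback inhibitor of the EGF receptor, had 7.20, 7.81 and 8.01 FPKM in the intervention, 6.80, 7.52 and 6.58 in the control and 11.9, 10.04 and 12.3 in the experimental libraries. Kdelr2, the receptor that returns proteins to the ER, had 68.9, 81.6 and 77.5 FPKM in the intervention, 69.3, 68.1 and 68.3 in the control and 103, 89.4 and 104 in the experimental libraries. Intervention and control values overlapped in both genes.

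**Figure D5:**
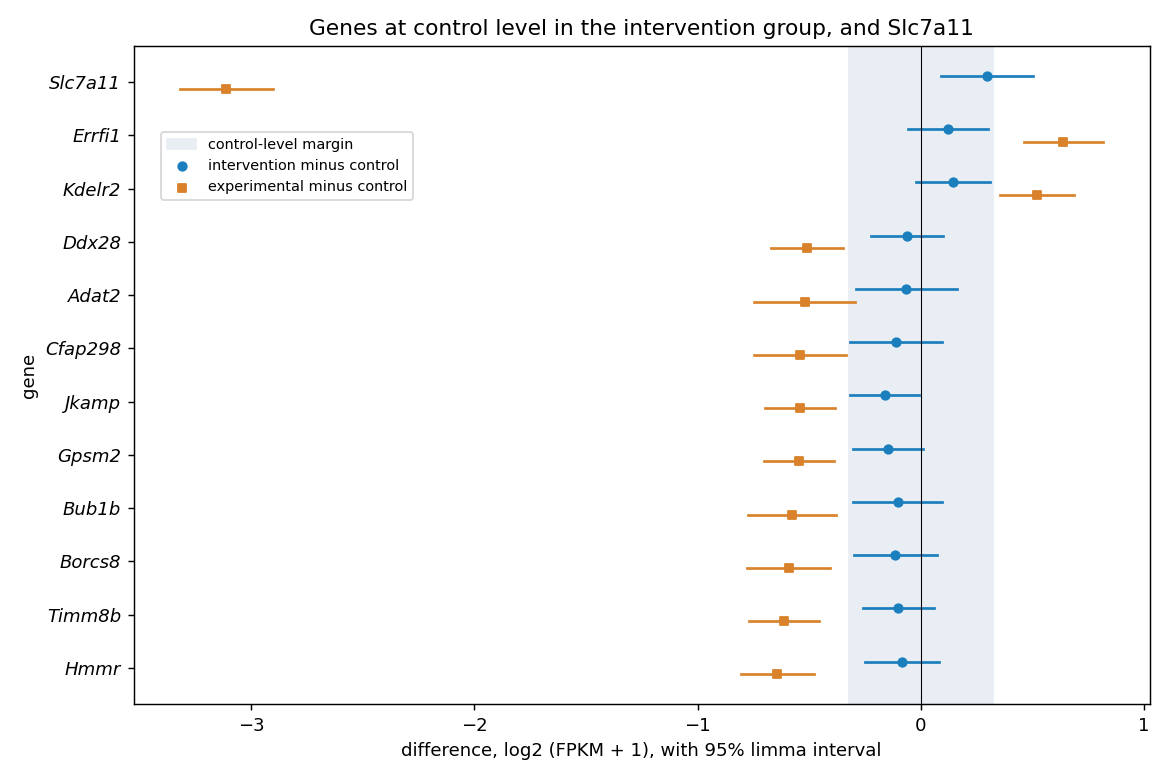
Log2 differences from control with 95% limma intervals for the 11 genes named at control level and for Slc7a11, for intervention minus control (blue circles) and experimental minus control (orange squares). The shaded band is the control-level margin of 0.32 log2 units. The blue intervals of these 11 genes lie inside it, and that of Slc7a11 reaches beyond it while its experimental difference is -3.11.

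A last set lay outside both other groups in the intervention libraries. Against the experimental group, whose comparison shares the intervention libraries, 1906 genes (15.9%) were called higher and 431 (3.6%) lower. Those counts rest on single libraries: without experimental replicate 1, experimental replicate 3 or intervention replicate 1 there were 1, 4 and 6 calls in all, against 2337 with every library. The genes below were named because limma called them against both groups, so their tests describe the choice. Ugt1a6a, a glucuronosyltransferase that conjugates phenols, had 7.07, 3.63 and 6.14 FPKM in the intervention, 3.03, 1.94 and 1.97 in the control and 2.49, 3.13 and 2.90 in the experimental libraries. Mgst1, a membrane glutathione transferase with peroxidase activity, had 37.2, 27.1 and 33.5 FPKM in the intervention, 19.7, 20.7 and 18.2 in the control and 21.3, 25.2 and 21.4 in the experimental libraries. Mettl7a1, a methyltransferase-like protein of the ER and lipid droplets, had 15.5, 13.1 and 13.3 FPKM in the intervention, 7.77, 8.15 and 6.64 in the control and 9.35, 10.9 and 9.15 in the experimental libraries. Ugt1a6a and Mgst1 are detoxifying enzymes, and neither was called in experimental against control. Mcrip2, a regulator linked to the MAP kinase pathway, Faap24, of the Fanconi anemia core complex, and Sumf2, a sulfatase-modifying paralog of the ER, had intervention means of 5.87, 5.78 and 17.1 FPKM against control means of 3.06, 3.80 and 12.5.

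Lower than both groups were Tfrc, described with the iron genes, and Ccn1, a matricellular YAP target with 13.4, 13.7 and 14.2 FPKM in the intervention, 30.1, 32.9 and 26.9 in the control and 19.7, 15.9 and 18.9 in the experimental libraries. Adamts1, a matrix protease, had 6.88, 9.62 and 8.65 FPKM in the intervention, 13.0, 11.4 and 12.1 in the control and 15.5, 11.6 and 13.9 in the experimental libraries. Arid5b, a chromatin-binding factor of fat cell genes, had 6.56, 7.82 and 6.98 FPKM in the intervention, 10.4, 9.05 and 11.4 in the control and 11.7, 9.19 and 10.7 in the experimental libraries. In Adamts1 and Arid5b the experimental values reached into the control range while the intervention values lay below it. Dpep1, a dipeptidase that splits glutathione breakdown products, and Rnd3, an inhibitor of cell contraction, had intervention means of 5.63 and 3.39 FPKM, control means of 9.57 and 4.61 and experimental means of 7.48 and 5.56. The call of Rnd3 against control held in 11 of 17 alternatives (highest adjusted p = 0.205). It was lost after median-ratio scaling, after quantile normalization and with no filter on low values. Leaving out intervention replicate 1 or 3 or control replicate 2 also lost it.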

How the data were processed

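The labels' protocols name a Qiagen RNeasy kit for the RNA and the SMARTER mRNA-Seq kit for the libraries. The authors deposited 1 table of FPKM for 9 libraries and 29756 entries. The submitters' processing notes name the build mm10 (aligner, counter, annotation and strandedness: not given in the sources used here), so overlapping genes and near-identical copies are uncertain as single genes. Depth is unknown: of 8055 values above 0 in genes under 200 nt, 16.1% were below 1 read of a library of 200 M reads, so reads could not be recovered and a count test was not made. Precision comes from the spread between replicates.

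Values were taken as log2(FPKM + 1), which understates the change of low genes. Entries with at least 1 FPKM in at least 3 of 9 libraries were tested (11974, of which 34 carry a symbol that occurs more than once). Groups came from the labels. All 9 libraries were fitted at once with limma 3.58.1 in R 4.3.3 (mean-variance trend, no covariate, 2-sided), and each adjusted p is Benjamini-Hochberg over all entries tested, called under 0.05. Control level means that the 95% interval lies between 20% below and 25% above control. The scripts were tested on simulated data.

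The named genes are, by rule, the 15 largest higher and lower calls without overlap and with a mean of at least 5 FPKM, leaving out predicted and ribosomal protein genes; up to 4 members per list with the smallest adjusted p, with list members at control level; 12 genes at control level with the largest experimental difference; and 6 higher and 6 lower than both other groups. A few genes that the rule picks are not reported here. A few list members outside it (Idh1, Ugdh, Ddit4, Ggps1, Vegfa, Dars and Mars1) are named as the exceptions of their lists, after their values were seen. The comparison, the 35 lists and the rules were chosen with earlier results of these data known. Of 811 listed genes, 700 were tested, and the others were not analysed here. Gene positions are from GENCODE M21 on mm10, and promoter sequences from RefSeq on GRCm38.p6, with 32851 windows of 300 bases for 27025 genes. Alternatives changed the pseudocount, filter, scaling, libraries, trend and margin, 1 at a time.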

Additional observations from a re-analysis of the deposited data

How the results depend on the processing

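The count of genes called between intervention and control stayed within 1.5 times of 7816 under each alternative but 1: with a mean of at least 5 FPKM required, 5129 were called, 2865 of them lower, among fewer genes tested. Calls of at least 1 log2 unit moved more. With a pseudocount of 0.1 there were 413 higher and 912 lower. Lower ones numbered 254 with the mean filter, 272 after median-ratio scaling and 925 on TPM. Genes at control level numbered 16761 with no filter on low values, 6874 at a 1.5-fold margin and 127 at a 1.1-fold margin. With the intervention and control libraries fitted alone, 7554 genes were called (2752 higher, 4802 lower) and 2713 stood at control level. Of the 7816 genes, 7756 were called with a pseudocount of 0.1, 6962 with no filter, 6677 after median-ratio scaling (22 with the other sign), 6638 after quantile normalization (32 with the other sign) and 7043 to 7695 with 1 library left out. Among named genes called in at least 1 of the 2 settings, 6 turned sign: under median-ratio scaling Akr1b8 was 0.13, Atp6v1a 0.012, Lamp1 0.12, Mcm7 0.14 and P4hb 0.12, and after quantile normalization mt-Nd5 was -0.13. Other named genes near control level crossed 0 without a call. The cause was not tested.

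Intervention against experimental rested on few libraries. The 2337 calls (1906 higher, 431 lower) became 358 with no filter (273 and 85), 1437 after median-ratio scaling (645 and 792), 1030 after quantile normalization (459 higher), and 1 to 2571 with 1 library left out (1 to 2066 higher, 0 to 505 lower). They numbered 939 without intervention replicate 3. Experimental against control had 8856 calls, 5702 with the mean filter (3556 lower) and, after median-ratio scaling, 4321 higher. Same-numbered intervention and control libraries did not deviate together (r across genes of 0.050, -0.076 and -0.077), so the numbers were not read as a pairing. With the replicate number as a block, 7577 genes were called between intervention and control (2793 higher, 4784 lower), 2688 stood at control level, and 1268 were called against experimental (1044 higher, 224 lower).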

Other observations

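A few genes were near 0 in one group, and were picked after their values were seen, as those with at least 1 FPKM in all 3 libraries of one group and at most 0.2 in all 3 of the other. There were 9 listed in the intervention group and not in control, and 1 the other way. Gsta2, a glutathione transferase, had 1.09, 1.34 and 1.35 FPKM in the intervention libraries and was listed at 0 in all 3 control libraries. Rnf183, a ubiquitin ligase of the ER, had 2.19, 3.59 and 4.71 FPKM against 0.04, 0.08 and 0.04. Htatip2, an oxidoreductase-like protein, had 1.13, 1.28 and 1.47 against 0.05, 0.03 and 0. Dnmt3l, a cofactor of DNA methyltransferases in germ cells, had 1.11, 1.33 and 1.68 against 0.09, 0.18 and 0.09. Tmem179, a membrane protein, had 1.52, 2.53 and 1.97 against 0.18, 0.18 and 0.19. The other 4 are predicted genes. Galnt15, which starts O-glycan chains, was the reverse, with 0.16, 0.09 and 0.12 FPKM in the intervention and 1.32, 1.07 and 1.30 in the control libraries. Each of the 6 genes named was on the same side of control in the experimental libraries, where Gsta2 had 2.16, 1.47 and 2.07 FPKM, Rnf183 4.57, 4.49 and 4.76, and Galnt15 0.07, 0.06 and 0.03. These levels are close to the limit of the filter, and the depth behind them is unknown.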
